A study of Homo sapiens with 12 samples.

Results

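A set of 38 genes that mark epithelial and mesenchymal cells or that build and cut the extracellular matrix was followed in A549 cells, an established human non-small cell lung cancer line, after transfection with parts of SEMA5A. SEMA5A is a transmembrane semaphorin, a guidance protein with an extracellular and an intracellular domain. The genes were taken by symbol from the platform annotation, and they fall into 11 epithelial junction and keratin genes, 7 mesenchymal genes, 7 matrix genes, 4 genes of the plasminogen system, and 9 metalloproteases and their inhibitors. Of the 38 genes, 37 had at least 1 probe, 57 of the 47323 probes on the array, and F11R, a tight junction adhesion molecule, was unlisted in the annotation and was not analysed here. The groups were cells given the intracellular domain alone (ICD), cells given the extracellular domain alone (ECD), cells given the full-length protein (Full) and cells given a control plasmid (Empty). All 4 groups went through the same jetPRIME transfection, had RNA taken 24 h later and are represented by 3 single-colour bead arrays each. The labels name neither the promoter that drives the plasmids nor the share of cells that took them up. They also do not say whether the arrays of a group were transfected separately. The p-values therefore rest on the scatter among these arrays alone, which may be technical.

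Epithelial cells are held together by E-cadherin (CDH1) at adherens junctions and by claudins, occludin and their scaffold ZO-1 (TJP1) at tight junctions, over a network of keratin filaments. In epithelial-mesenchymal transition, repressors such as ZEB1 and SNAI2 switch off CDH1, while N-cadherin (CDH2), vimentin (VIM) and fibronectin (FN1) come up and matrix-cutting enzymes are released. The plasminogen activators and the matrix metalloproteases cut the matrix outside the cell, the TIMP proteins and serpins hold them back, and ADAM proteases shed proteins from the cell surface.

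Between 18659 and 20366 probes per array were above background, meaning a detection p under 0.05 against the negative controls of the array. The 2 SEMA5A probes gave 0 of 24 readings above background, and gave no check of the labels or of construct levels. The Full arrays were spread along the second principal component, at 11.8, -0.37 and 22.0 for arrays 1, 2 and 3. Array 3 was the highest of all 12 arrays there, though array 2 also lay far from array 1. The differences that rest on Full are given without array 3 where they are called. The comparison of Full with Empty without array 3 has a passage of its own. Of the 8 markers fixed for the A549 line, KRT8, KRT18 and AKR1C3 were above background on all 12 arrays, while CDH1 and AKR1C1 were above background on none. No fibroblast marker reached more than 4 of 12 arrays, and no endothelial marker more than 6. Of the leukocyte markers CD68, also made by other cells, was above background on all 12 arrays, CD3E on none, and PTPRC and LYZ on 1 ICD array each. CD14 was above background on 3 ICD, 1 ECD, 1 Full and 0 Empty arrays, at intensities of 91.9 to 113.3 over all arrays. The intensity summed over all probes of the leukocyte markers was 3267.4 to 3568.4 with ICD, 3799.7 to 3861.1 with ECD, 3271.6 to 3460.3 with Full and 3092.9 to 3362 with Empty. Within these sums the CD68 probes read 104.2 to 1965.9, and those of PTPRC, CD3E, LYZ and CD14 read 88.4 to 114. The bright readings in the sums were thus those of CD68 alone. The part of these markers in the results with ICD and ECD was not tested.

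In these A549 cells both keratin 8 and vimentin were above background on all 12 arrays, and both E-cadherin and ZEB1 were at background. Detection was less frequent on the epithelial side, where 4 of 10 genes with a probe entered the test, against 5 of 7 mesenchymal genes. Of the 37 genes with a probe, 22 entered the test because a probe was above background on all 3 arrays of at least 1 group, and 21 of these genes had a probe above background on all 12 arrays. The exception was SNAI2, whose 2 probes were above background on 10 and 8 arrays, though 1 or the other was on each of the 12. The other 15 genes did not enter. They were 6 of 10 epithelial genes (CDH1, EPCAM, KRT7, KRT19, CLDN2 and OCLN), 2 of 7 mesenchymal genes (FN1 and ZEB1), 3 of 7 matrix genes (SPARC, COL4A1 and COL4A2) and 4 of 9 metalloproteases and inhibitors (MMP1, MMP14, MMP15 and TIMP3). Their 20 probes read 90.1 to 119.3 intensity units over all arrays, with 26 of 240 readings above background. CDH1, KRT19, ZEB1, COL4A1 and MMP15 had no such reading. A probe at background does not show that its transcript was absent.

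**Figure D1:**
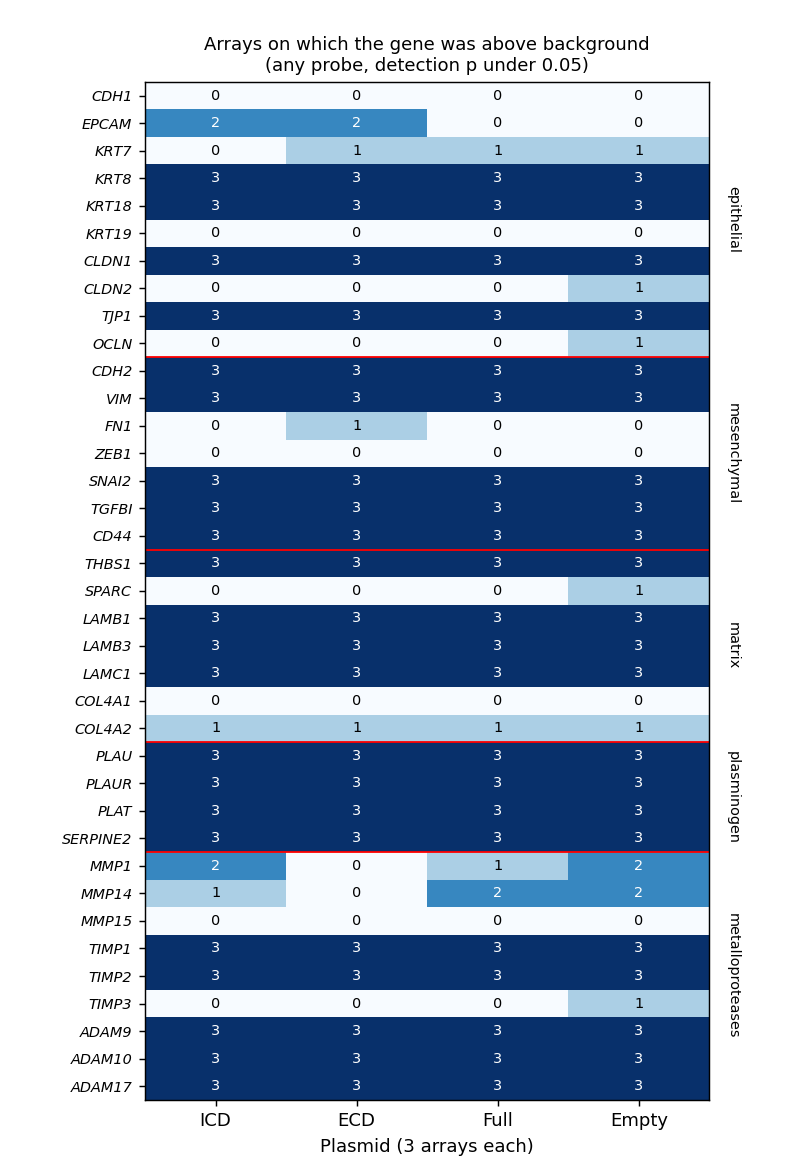
Number of arrays, of 3 in each group (columns), on which any probe of a gene (rows, ordered by role and divided by red lines) had a detection p under 0.05. The 22 tested genes read 3 in every group, and the other 15 read 0 to 2.

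The defining genes that could not be tested are shown by their raw intensities. CDH1 read 96.8, 102.3 and 94 with ICD, 99.3, 105.2 and 102 with ECD, 94.4, 106.9 and 97.3 with Full, and 96.7, 106 and 96.8 with Empty. ZEB1, a repressor of CDH1, read 96, 98 and 97.7 with ICD, 95.9, 99.8 and 105.6 with ECD, 97.5, 106.7 and 98.2 with Full, and 99.8, 99.9 and 95.7 with Empty. The groups overlapped for both genes, and no array was above background. EPCAM, an epithelial adhesion molecule with 3 probes, gave 101.2, 103.6 and 103.3 with ICD, 111.5, 108.4 and 108.4 with ECD, 99.1, 108.6 and 95.2 with Full, and 99.8, 103.4 and 103.4 with Empty by the probe that was most often above background. By any of its probes it was above background on 2 ICD, 2 ECD, 0 Full and 0 Empty arrays. FN1, the matrix glycoprotein fibronectin, also had 3 probes, of which 1 was above background on 1 ECD array. That probe, also picked through ECD, read 97.7, 95.3 and 104.1 with ICD, 98.9, 103.5 and 108.5 with ECD, 95.1, 106.9 and 103.2 with Full, and 99.9, 99.3 and 96.2 with Empty. The other FN1 probes read 95.4, 106.3 and 95.5, and 99.1, 97 and 97.1 with ECD. With Empty they read 98.9, 100 and 103.3, and 97.1, 107.8 and 100.4. MMP1, the interstitial collagenase, was above background on 2 ICD, 0 ECD, 1 Full and 2 Empty arrays, and MMP14, a membrane-bound metalloprotease, on 1, 0, 2 and 2 in the same order. With all probes tested and no detection filter, limma called 0 of these 15 genes in any of the 6 comparisons at an adjusted p under 0.05. At an unadjusted p under 0.05 there were 3 such values, KRT19 in ICD against Empty and EPCAM and MMP14 in Full against ECD. Shares over all probes are not given for this fit. With the detection filter, 23.7% of all features had such a p in ICD against Empty and 33.6% in Full against ECD.

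Among the 22 tested genes few passed the test against Empty, and the changes were small. With ICD, the surface receptor CD44 and the matrix glycoprotein thrombospondin 1 (THBS1) rose. With ECD these same 2 genes and claudin-1 (CLDN1) rose, and the matrix protein TGFBI fell. With Full, 0 of the 22 genes passed the test in limma, and 4 (18.2%) had an unadjusted p under 0.05, against 14.7% of all features. A gene is called here when its Benjamini-Hochberg adjusted p over all 15338 tested features was under 0.05 in limma, and values are background-corrected, quantile-normalized log2 intensities of the brightest entering probe of a gene.

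The share of genes called was read against the share of all features called. With ICD 2 of 22 were called, 9.09% against 6.01% of all features, and both were higher, as were 3.33% of all features. With ECD 4 of 22 were called, 18.2% against 11.4%, with 3 higher and 1 lower where 6.04% and 5.37% of all features were. With Full the share was 0% against 1.08%. The arrays of the 2 groups did not overlap for 7 of the 22 genes with ICD, 7 with ECD and 4 with Full, and for 31.7%, 38.4% and 18.4% of all features. RNA came from whole cultures, so a change in a few cells and a small change in all cells cannot be told apart. The 3 comparisons share the Empty arrays. The median log2 difference of the 22 genes was 0.08 with ICD, 0.07 with ECD and -0.01 with Full, while that of all features was 0.01, -0.01 and 0.01. Median scaling in place of quantile normalization moved the median of all features to 0.11 with ECD, and to 0.03 with ICD and 0.00 with Full. Under it 0 of the 22 genes were called with ICD, 3 with ECD, all of them higher, and 0 with Full, while calls over all features with ECD split into 2133 higher and 166 lower, against 927 and 823.

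Without Full array 3, 0 of the 22 genes were called against Empty in limma, with 3 at an unadjusted p under 0.05, and the log2 differences moved by -0.15 to 0.06. Shares over all features are not given for this fit. With all arrays 14.7% of all features had an unadjusted p under 0.05, so the count of 3 is not read as a result. TGFBI moved to -0.47 ± 0.11 (SE, limma adjusted p = 0.0742), THBS1 to -0.23 ± 0.11 (limma adjusted p = 0.437) and ADAM9 to 0.23 ± 0.16 (limma adjusted p = 0.622). KRT8 stood at 0.34, CLDN1 at -0.11, TJP1 at -0.20, CD44 at 0.14, PLAU at 0.04 and ADAM10 at -0.34, none of them called. VIM was at 0.04 and CDH2 at -0.09. The sign changed for 2 genes, PLAUR and ADAM17, whose differences were near 0 in both fits.

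**Figure D2:**
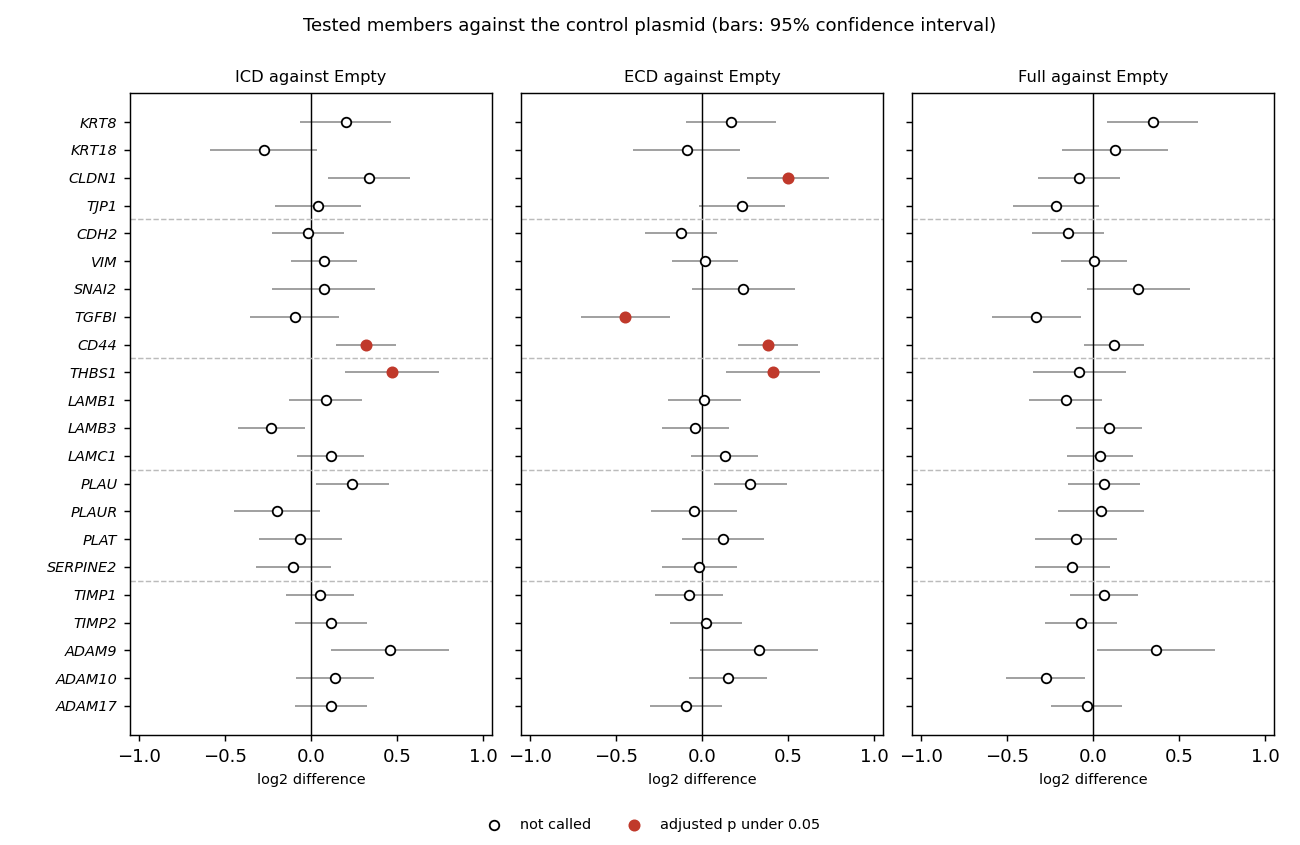
Log2 difference from Empty (x axis) of the 22 tested genes (rows, by role) with ICD, ECD and Full, with 95% confidence intervals of the limma fit. Filled points mark the called values, which are CD44 and THBS1 with ICD, and CLDN1, CD44 and THBS1 higher and TGFBI lower with ECD.

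The regions just upstream of the 3 genes that rose with ECD are shown because these genes were also lower with Full than with ECD. The sequences are the 250 bases before the RefSeq start in GRCh38.p14, written in the direction of the gene. CLDN1 lies at chr3:190322447-190322696 on the minus strand, CD44 at chr11:35138921-35139170 on the plus strand and THBS1 at chr15:39580829-39581078 on the plus strand. Capitals mark matches on either strand to the motifs searched.
CLDN1: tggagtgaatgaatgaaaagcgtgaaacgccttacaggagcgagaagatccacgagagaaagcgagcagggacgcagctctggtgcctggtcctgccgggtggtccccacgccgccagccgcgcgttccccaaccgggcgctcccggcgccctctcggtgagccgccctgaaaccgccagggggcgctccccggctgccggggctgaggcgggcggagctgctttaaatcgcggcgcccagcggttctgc
CD44: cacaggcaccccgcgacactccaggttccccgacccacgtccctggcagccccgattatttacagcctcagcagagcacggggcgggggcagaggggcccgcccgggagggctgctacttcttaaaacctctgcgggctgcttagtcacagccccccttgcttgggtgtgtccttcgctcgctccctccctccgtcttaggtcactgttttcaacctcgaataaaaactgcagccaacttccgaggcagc
THBS1: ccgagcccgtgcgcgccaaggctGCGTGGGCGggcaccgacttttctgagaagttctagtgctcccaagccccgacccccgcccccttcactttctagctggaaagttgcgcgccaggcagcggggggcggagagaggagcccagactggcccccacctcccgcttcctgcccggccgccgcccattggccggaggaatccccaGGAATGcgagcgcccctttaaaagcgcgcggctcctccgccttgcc
The motifs were the AP-1 site TGANTCA, the CRE TGACGTCA, the EGR1 site GCGNGGGCG, the TEAD site GGAATG, the interferon-stimulated response element, the E-box CAGGTG, the TATA box TATAAA and the SRF CArG box. The THBS1 window held an EGR1 match that begins 227 bases before the start and a TEAD match that begins 46 bases before it. Among all 35116 windows in the table, 8.41% held the EGR1 letters and 11.9% the TEAD letters. The windows of CLDN1 and CD44, and those of TGFBI and ADAM10, held no match to any of the 8 motifs, which says only that these letters are not in them. Shares of all windows for the other motifs were 6.57% for AP-1, 1.65% for CRE, 3.02% for the interferon element, 17.5% for the E-box, 10.7% for the TATA box and 1.16% for the CArG box, and none of the motifs found overlapped another.

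Among the epithelial genes CLDN1, which seals tight junctions, was the 1 called against Empty. It read 7.94, 8.20 and 7.83 on the log2 scale with ICD, 8.05, 8.32 and 8.09 with ECD, 7.47, 7.63 and 7.62 with Full, and 7.65, 7.74 and 7.58 with Empty. All ICD and ECD arrays lay above all Empty arrays, and the Full arrays overlapped Empty. With ECD it was 1.41-fold higher than with Empty (log2 0.50 ± 0.11, SE, n = 3 arrays in each group, limma adjusted p = 0.0129). The log2 difference with ICD was 0.34 ± 0.11 (limma adjusted p = 0.0877) and with Full -0.08 ± 0.11 (limma adjusted p = 0.777). The ECD call was lost in limma without ECD array 2 (log2 0.41, adjusted p = 0.0636) and without Empty array 3 (log2 0.46, adjusted p = 0.0606), and was kept under all 10 other processing alternatives.

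TJP1, the ZO-1 scaffold that ties claudins to actin, read 8.95, 8.74 and 8.90 with ICD, 8.94, 9.09 and 9.13 with ECD, 8.40, 8.85 and 8.59 with Full, and 8.95, 8.77 and 8.76 with Empty. Its ECD arrays overlapped Empty, and the log2 differences from Empty were 0.04 with ICD, 0.23 with ECD and -0.21 with Full (limma adjusted p = 0.871, 0.216 and 0.419). A second TJP1 probe gave -0.13, 0.12 and -0.20 in the same order, none of them called. KRT8, the type II keratin of simple epithelia, differed from Empty by 0.20 with ICD, 0.17 with ECD and 0.35 with Full (limma adjusted p = 0.348, 0.401 and 0.218). Its partner KRT18 differed by -0.28, -0.09 and 0.13 in the same order. A second KRT18 probe gave -0.21, -0.32 and 0.10, and its ECD value had a limma adjusted p of 0.048 over all 18728 entering probes, so the 2 probes of KRT18 did not give the same call.

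**Figure D3:**
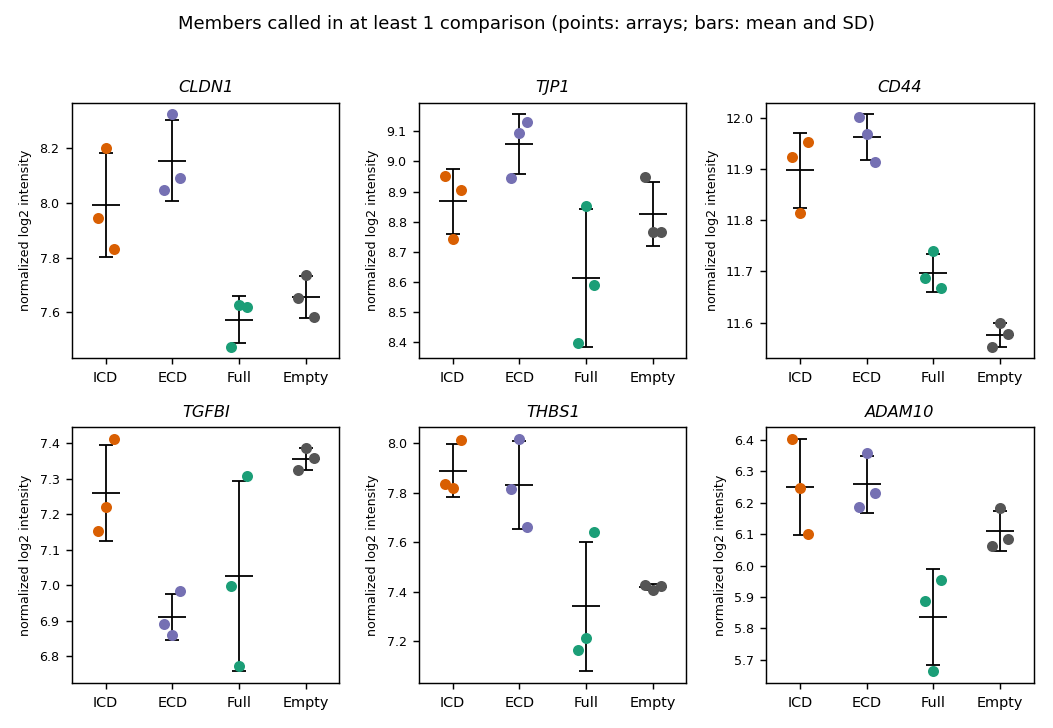
Normalized log2 intensity (y axes, which do not start at 0) of the 6 genes called in at least 1 of the 6 comparisons, by group, with a point for each array and bars for the mean and SD. CLDN1, CD44 and THBS1 lie higher with ICD and ECD than with Full, and ADAM10 lies lowest with Full.

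Among the mesenchymal genes CD44, a receptor for hyaluronan, was called with both domains. It read 11.92, 11.81 and 11.95 with ICD, 12.00, 11.97 and 11.91 with ECD, 11.69, 11.74 and 11.67 with Full, and 11.55, 11.60 and 11.58 with Empty. In each of the 3 SEMA5A groups all arrays lay above all Empty arrays. CD44 was 1.31-fold higher with ECD (log2 0.38 ± 0.08, SE, n = 3 arrays in each group, limma adjusted p = 0.01) and 1.25-fold higher with ICD (log2 0.32 ± 0.08, limma adjusted p = 0.0335), and differed by 0.12 ± 0.08 with Full (limma adjusted p = 0.516). The ECD call was kept whichever of the 6 arrays was left out, at limma adjusted p of 0.0267 to 0.0429. The ICD call was kept only without ICD array 2 (log2 0.36, limma adjusted p = 0.047), with 0.0915 to 0.102 without any 1 of the other 5. The 2 further CD44 probes gave 0.40 and 0.07 with ECD and 0.27 and 0.24 with ICD, none of them called, and the mean of the 3 probes was called with neither domain (limma adjusted p = 0.0644 with ECD and 0.0912 with ICD).

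TGFBI, a matrix protein induced by TGF-beta that binds integrins, read 7.15, 7.22 and 7.41 with ICD, 6.89, 6.86 and 6.98 with ECD, 7.00, 6.77 and 7.31 with Full, and 7.32, 7.39 and 7.36 with Empty. All ECD arrays lay below all Empty arrays. It was 1.36-fold lower with ECD (log2 -0.44 ± 0.12, SE, n = 3 arrays in each group, limma adjusted p = 0.0306), and the log2 difference was -0.33 with Full and -0.10 with ICD (limma adjusted p = 0.23 and 0.683). The ECD call was lost without any 1 of the 6 arrays (limma adjusted p of 0.0597 to 0.0976) and under median scaling, where the log2 difference was -0.25 (limma adjusted p = 0.184). With the authors' log2 values it was -0.28 and called (limma adjusted p = 0.0151).

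The defining mesenchymal genes gave no call in any of the 6 comparisons. VIM, the intermediate filament protein, read 13.64, 13.76 and 13.78 with ICD, 13.56, 13.71 and 13.73 with ECD, 13.67, 13.71 and 13.59 with Full, and 13.73, 13.61 and 13.61 with Empty. Its log2 differences from Empty had 95% confidence intervals of -0.12 to 0.27 with ICD, -0.18 to 0.21 with ECD and -0.18 to 0.20 with Full. A second VIM probe gave 0.08, 0.11 and -0.04 in the same order, none of them called. CDH2, N-cadherin, read 10.32, 10.16 and 10.10 with ICD, 10.19, 10.12 and 9.96 with ECD, 10.18, 10.05 and 9.97 with Full, and 10.24, 10.15 and 10.25 with Empty. The intervals of its differences from Empty were -0.22 to 0.19 with ICD, -0.33 to 0.09 with ECD and -0.35 to 0.07 with Full, and the groups overlapped. SNAI2, the repressor known as Slug, was close to background. It read 4.99, 4.59 and 4.79 with ICD, 5.10, 4.98 and 4.80 with ECD, 4.96, 4.88 and 5.11 with Full, and 4.44, 4.72 and 4.99 with Empty. Its log2 differences from Empty were 0.07, 0.24 and 0.26 with ICD, ECD and Full, while a second probe gave -0.20, -0.17 and -0.24, so the sign depended on the probe.

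Among the matrix genes THBS1, a glycoprotein that binds cells and activates latent TGF-beta, was the 1 called against Empty. It read 7.83, 7.82 and 8.01 with ICD, 7.81, 8.02 and 7.66 with ECD, 7.17, 7.21 and 7.64 with Full, and 7.43, 7.41 and 7.42 with Empty. All ICD and ECD arrays lay above all Empty arrays, which were very close together. It was 1.39-fold higher with ICD (log2 0.47 ± 0.13, SE, n = 3 arrays in each group, limma adjusted p = 0.0433) and 1.33-fold higher with ECD (log2 0.41 ± 0.13, limma adjusted p = 0.0496), and differed by -0.08 ± 0.13 with Full (limma adjusted p = 0.821). Both calls lay near the threshold and were lost without any 1 of the 6 arrays (limma adjusted p of 0.0748 to 0.13 with ICD and 0.0536 to 0.183 with ECD). The laminin chains, which assemble into basement membranes, were not called against Empty. LAMB1 differed by 0.09, 0.01 and -0.16 with ICD, ECD and Full, LAMB3 by -0.23, -0.04 and 0.09, and LAMC1 by 0.11, 0.13 and 0.04. A second LAMB1 probe gave -0.21, 0.03 and -0.18 in the same order and was not called.

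None of the proteases or inhibitors was called against Empty. PLAU, the urokinase plasminogen activator, read 11.51, 11.60 and 11.43 with ICD, 11.49, 11.50 and 11.67 with ECD, 11.44, 11.19 and 11.38 with Full, and 11.36, 11.27 and 11.18 with Empty. All its ICD and ECD arrays lay above all Empty arrays, at log2 differences of 0.24 ± 0.10 and 0.28 ± 0.10 (SE, 3 arrays a group, limma adjusted p = 0.159 and 0.0797), and 0.06 ± 0.10 with Full (limma adjusted p = 0.807). Its receptor PLAUR differed by -0.20, -0.04 and 0.05 with ICD, ECD and Full, the second activator PLAT by -0.06, 0.12 and -0.10, and the inhibitor SERPINE2 by -0.10, -0.01 and -0.12. In the same order, the other PLAUR probes gave -0.02, 0.07 and 0.23, and -0.33, -0.08 and 0.14, none of them called. By their brightest probes, the metalloprotease inhibitors TIMP1 and TIMP2 stayed between -0.07 and 0.12 in all 3 comparisons. A second TIMP2 probe gave -0.06, -0.19 and -0.05 with ICD, ECD and Full and was not called. ADAM9, a membrane protease, differed by 0.46, 0.33 and 0.37 with ICD, ECD and Full (limma adjusted p = 0.103, 0.194 and 0.308), with wide intervals such as 0.11 to 0.80 for ICD. ADAM17, which releases TNF and EGF receptor ligands, differed by 0.12, -0.09 and -0.04. Its dimmer probes gave -0.10, -0.04 and -0.07, and 0.02, 0.15 and 0.04, none of them called.

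Comparing the constructs with each other, 5 of the 22 genes were lower with Full than with ECD and 0 were higher. They were the junction genes CLDN1 and TJP1, the receptor CD44, the matrix protein THBS1 and the sheddase ADAM10. That is 22.7% of the tested genes against 18.3% of all features, and 10.2% of all features were called lower. Under median scaling the background was one-sided too, with 1.68% of all features higher and 18.9% lower and a median log2 difference of -0.10, and 6 of the 22 genes were lower and 0 higher. CLDN1 was 1.49-fold lower with Full than with ECD (log2 -0.58 ± 0.11, SE, n = 3 arrays in each group, limma adjusted p = 0.00466), with all Full arrays below all ECD arrays, and this call was kept whichever of the 6 arrays was left out. THBS1 was 1.41-fold lower (log2 -0.49 ± 0.13, limma adjusted p = 0.0173), TJP1 1.36-fold lower (-0.44 ± 0.12, limma adjusted p = 0.019) and CD44 1.2-fold lower (-0.26 ± 0.08, limma adjusted p = 0.038). The other probe of TJP1 gave -0.33, and those of CD44 gave -0.63 and -0.08, of which the first was called (limma adjusted p = 0.00632). Arrays of Full and ECD did not overlap for 7 of the 22 genes, against 35.2% of all features.

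ADAM10, the protease that sheds cadherins and Notch from the cell surface, read 6.40, 6.25 and 6.10 with ICD, 6.19, 6.36 and 6.23 with ECD, 5.89, 5.66 and 5.96 with Full, and 6.06, 6.18 and 6.09 with Empty. The Full arrays were the lowest of all 12. ADAM10 was 1.34-fold lower with Full than with ECD (log2 -0.42 ± 0.11, SE, n = 3 arrays in each group, limma adjusted p = 0.0149) and 1.33-fold lower than with ICD (-0.41 ± 0.11, limma adjusted p = 0.0403), while Full differed from Empty by -0.28 ± 0.11 (limma adjusted p = 0.252). A second ADAM10 probe gave -0.31 against ECD and -0.11 against ICD and was not called. Against Empty the brightest probe gave 0.14, 0.15 and -0.28 with ICD, ECD and Full. The second gave -0.35, -0.14 and -0.45, and none of these were called. With the authors' log2 values the ADAM10 differences were -0.19 against ECD and -0.18 against ICD, both called. In the fit over all entering probes, other probes were also called where the brightest was not, namely a KRT18 probe at 0.42 for Full against ECD (limma adjusted p = 0.0114), and for Full against ICD a CD44 probe at -0.50 and a PLAUR probe at 0.48 (limma adjusted p = 0.042 and 0.0328).

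Against ICD, Full was lower for 3 of the 22 genes and higher for 0, which is 13.6% against 5% of all features called and 2.99% called lower. Their arrays did not overlap for 7 genes, against 25.1% of all features. Besides ADAM10 these were THBS1, 1.46-fold lower (log2 -0.55 ± 0.13, SE, n = 3 arrays in each group, limma adjusted p = 0.0272), and CLDN1, 1.34-fold lower (-0.42 ± 0.11, limma adjusted p = 0.0454). LAMB3, a chain of the epithelial laminin-332, had a difference of 0.32 ± 0.09 just outside the threshold (limma adjusted p = 0.0522). Between ECD and ICD, 0 of the 22 genes were called in limma, against 1.71% of all features, and 2 (9.09%) had an unadjusted p under 0.05, against 13.7% of all features. The arrays did not overlap for 4 genes, against 22.5% of all features. The largest difference there was -0.35 for TGFBI (95% confidence interval -0.61 to -0.09, limma adjusted p = 0.203), so the intervals do not show that the 2 domains acted alike.

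These calls between constructs moved with single arrays. Without Full array 3, the calls against ECD of CLDN1 (log2 -0.60), THBS1 (-0.64) and ADAM10 (-0.48) remained, at limma adjusted p of 0.0134, 0.0066 and 0.0208, while TJP1 (-0.43) and CD44 (-0.25) were not called. Against ICD the call of THBS1 (-0.70, limma adjusted p = 0.0123) remained, and CLDN1 (-0.44) and ADAM10 (-0.48) were not called. Against ECD, TJP1 was also lost without ECD array 2 or 3 or Full array 1, CD44 without any array but Full array 2, THBS1 without ECD array 2 or Full array 1, and ADAM10 without ECD array 2 (limma adjusted p of 0.0547 to 0.109 over these fits). Against ICD, CLDN1 was lost without ICD array 1 or 2 or Full array 1 or 3, THBS1 without any 1 ICD array or Full array 1, and ADAM10 without any array but ICD array 3 (limma adjusted p of 0.0547 to 0.149). All of these differences kept their sign. In a further comparison, chosen after the data were seen, the difference of Full from ECD was set against that of ICD from Empty. By their brightest probes 6 of the 22 genes were called, all with the lower value for Full against ECD. Of all features 22.8% were called and 12.3% called lower. A dimmer probe of KRT18 and another of PLAUR were called with the higher value (limma adjusted p = 0.00591 and 0.0224).

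**Figure D4:**
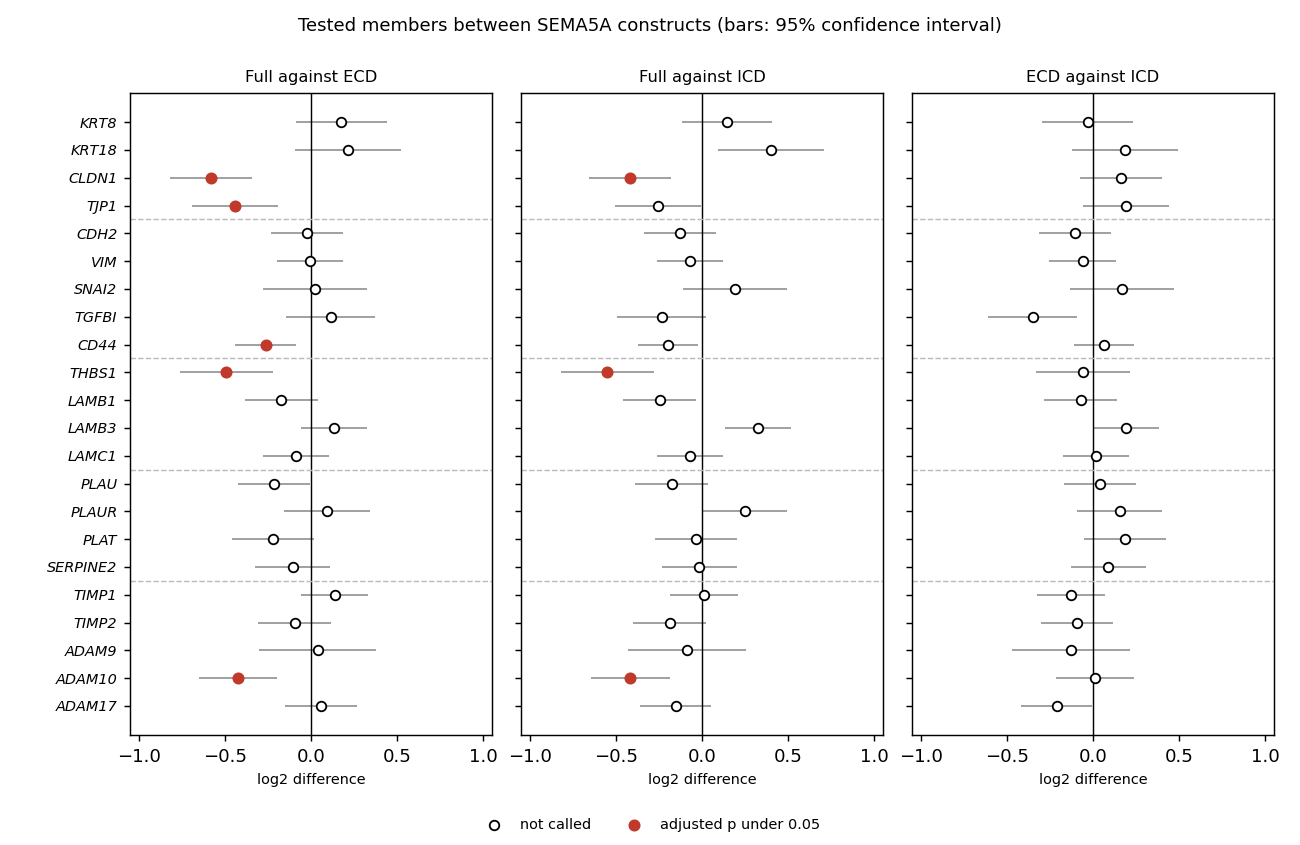
Log2 difference (x axis) of the 22 tested genes (rows, by role) for Full against ECD, Full against ICD and ECD against ICD, with 95% confidence intervals of the limma fit. All called values, shown filled, are below 0, with 5 for Full against ECD, 3 for Full against ICD and 0 for ECD against ICD.

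Other genes of the same pathways were taken from 5 lists of 138 genes in all, of which 129 had a probe and 69 were tested. With ICD 3 were higher and 1 lower, 5.8% of those tested against 6.01% of all features. With ECD 4 were higher and 4 lower, 11.6% against 11.4%. Under median scaling 17 were higher and 0 lower with ECD, where 13.9% and 1.08% of all features were. With Full 1 was higher and 1 lower, 2.9% against 1.08%. Among 15 other epithelial genes, 0 were called with ICD or Full and 1 with ECD. Among 15 other mesenchymal and TGF-beta response genes, 3 were higher and 0 lower with ICD, 3 higher and 1 lower with ECD, and 1 higher and 1 lower with Full. Among 18 other matrix genes, 0 were higher and 1 was lower with ICD, 0 higher and 2 lower with ECD, and 0 were called with Full. Among 10 other proteases and inhibitors, 1 was lower with ECD and 0 were called otherwise, and 0 of 11 integrins and other matrix receptors were called in any of the 3 comparisons.

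CCN1, a matrix-associated protein that binds integrins, was the 1 gene of these lists called higher with all constructs. It read 9.86, 9.91 and 10.03 with ICD, 10.11, 10.25 and 10.02 with ECD, 9.94, 9.71 and 9.91 with Full, and 9.46, 9.22 and 9.33 with Empty. All arrays of the 3 SEMA5A groups lay above all Empty arrays. It was 1.51-fold, 1.73-fold and 1.43-fold higher with ICD, ECD and Full (limma adjusted p = 0.0049, 0.00025 and 0.024). The calls with ICD and ECD were kept whichever array was left out, and the Full call was lost without Full array 1 or 3 or Empty array 2 or 3 (limma adjusted p of up to 0.138). Its relative CCN2 was 1.38-fold higher with ICD and 1.45-fold with ECD (limma adjusted p = 0.021 and 0.0063), and the ICD call was lost in 4 of 6 fits without 1 array.

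DSP, the desmosomal plaque protein desmoplakin, read 5.67, 5.54 and 5.96 with ICD, 6.14, 6.46 and 6.39 with ECD, 5.69, 5.90 and 5.63 with Full, and 5.45, 5.60 and 5.56 with Empty. The 3 ECD arrays were the highest of all 12, and DSP was 1.73-fold higher with ECD than with Empty (limma adjusted p = 0.0012), a call kept whichever array was left out. Its log2 difference was 0.79, against 0.51 at an offset of 50 and 0.34 with the authors' log2 values, and was called in both. ZEB2, a repressor related to ZEB1, was 1.49-fold higher with ECD (limma adjusted p = 0.016), at 6.55, 6.52 and 6.28 against 6.03, 5.84 and 5.74 with Empty, and its log2 difference of 0.58 became 0.27 with the authors' values, still called. NT5E, the surface nucleotidase CD73, was 1.25-fold higher with ICD (limma adjusted p = 0.04). Lower genes were the laminin chain LAMB2, 1.30-fold with ICD and 1.28-fold with ECD (limma adjusted p = 0.023 and 0.021), and LTBP2, which binds microfibrils, 1.33-fold with ECD and 1.43-fold with Full (limma adjusted p = 0.029 and 0.041). With ECD the collagen IV chain COL4A6 was 1.32-fold and the protease ADAM19 1.33-fold lower (limma adjusted p = 0.041 and 0.012). Under median scaling all of these lower calls, and NT5E, were lost. COL4A6 was lost in 7 of 10 processing alternatives, with log2 differences of -0.40 to -0.14, while ADAM19 was lost in 1 of 10, with -0.41 to -0.21. LAMB2 with either domain and LTBP2 with ECD were also lost in 1 of 10, at sizes down to -0.23, -0.17 and -0.22. The Full call of LTBP2 was lost in 4 of 10 (log2 -0.54 to -0.32, limma adjusted p of up to 0.112), and that of CCN1 in 1 of 10 (limma adjusted p of up to 0.131). Without 1 array, NT5E and COL4A6 were lost in 6 of 6 fits, LTBP2 in 5 of 6 with either construct, LAMB2 in 4 of 6 with either domain, ZEB2 in 4 of 6 and ADAM19 in 3 of 6. Without Full array 3 the Full differences were 0.49 for CCN1 and -0.55 for LTBP2 (limma adjusted p = 0.0826 and 0.0759).

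**Figure D5:**
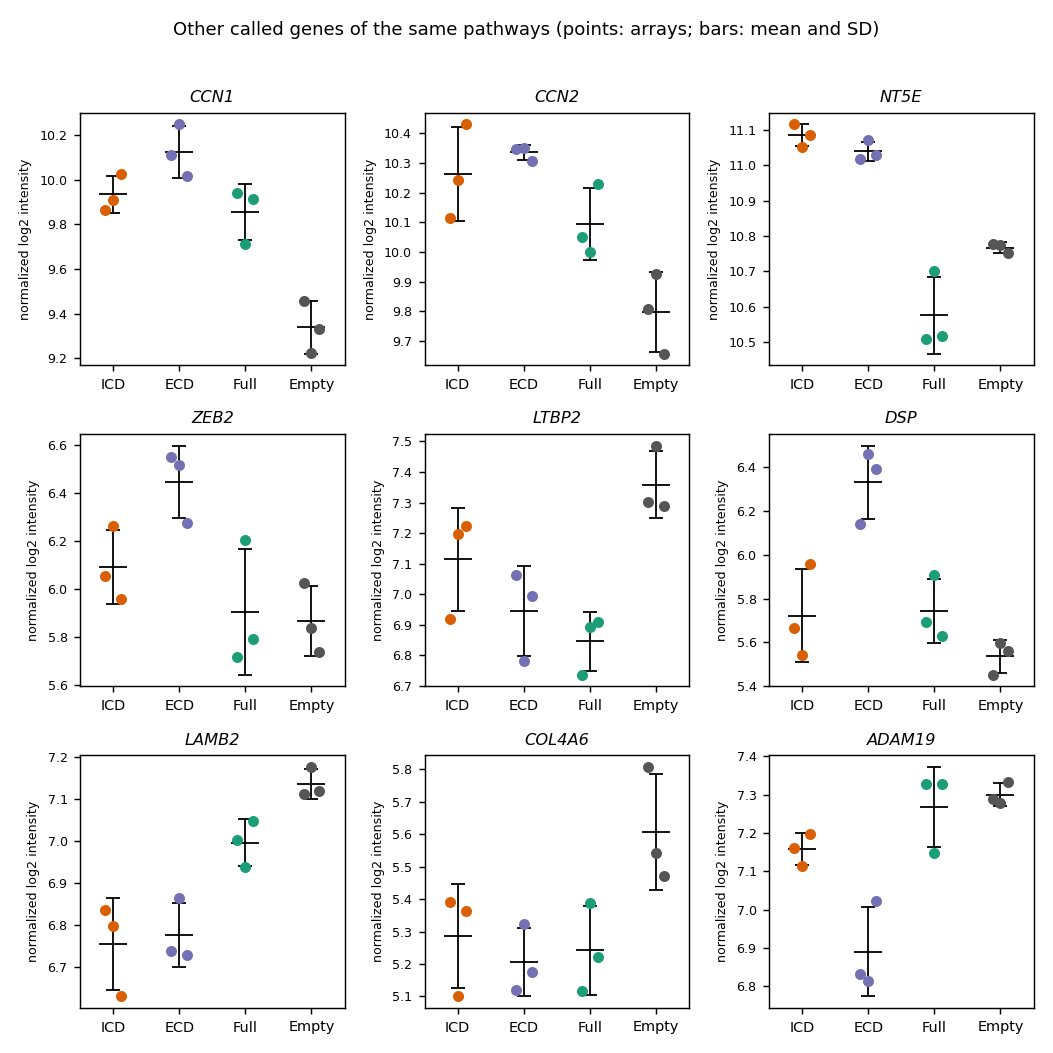
Normalized log2 intensity (y axes, which do not start at 0) of the 9 other pathway genes called against Empty, by group, with a point for each array and bars for the mean and SD. CCN1 lies above Empty in all 3 SEMA5A groups, and DSP is highest with ECD.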

How the data were processed

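Expression was measured on 12 Illumina bead arrays. Biotin-labelled cRNA was made with a TotalPrep amplification kit, per the labels' protocols. The scanner software is not given in the sources used here. Linear intensities, with background not subtracted, and detection p-values make up the deposited table. The log2 values deposited beside them come with no account of their making and equal quantile-normalized log2 intensities within 5e-09, so scale and centring are known. Probes were named from the platform annotation, 30113 with 1 symbol, 8 with several and 17202 with none, and 30074 were matched by Entrez identifier to RefSeq, which changed 0 symbols. Here the intensities were normalized with neqc (limma 3.58.1, R 4.3.3, background from the detection p-values, offset 16), which shrinks differences of dim probes. Probes entered (18728 in number) where some group had a detection p under 0.05 on each of its 3 arrays. The brightest entering probe stood for a symbol, leaving 15338 features, 4426 of them without a symbol. Values of second probes come from a fit over all entering probes. Group means were compared in 1 limma fit of the 12 arrays (8 residual and 6.50 prior degrees of freedom), two-sided, with Benjamini-Hochberg adjustment. The number of arrays limits the precision. No 2 arrays held identical values (0 pairs), and every column of sample values was used.

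The genes and lists were chosen with earlier results of these data known. All 38 genes are accounted for. Values on every array are given for those called against Empty and for CDH1, CDH2, EPCAM, VIM, FN1, ZEB1 and SNAI2, and other genes are given by list, up to 4 called genes per list and comparison. TJP1, ADAM10, PLAU, and the motifs and promoters, were chosen after values were seen. Upstream windows came from the RefSeq table of GRCh38.p14, which held 27 of the 38 genes, 4 windows of them for TJP1. Alternatives covered the background, offset, scaling, detection filter, probe choice, fitted groups, variance model, a replicate block and each array left out. The steps were tested on simulated data. Figures used matplotlib 3.10.9 under Python 3.11.15.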

Additional observations from a re-analysis of the deposited data

Results flagged for a closer look

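The constructs allow a further comparison, added after the data were seen, which sets the difference between Full and ECD against the difference between ICD and Empty. It asks whether the intracellular domain went with the same change when joined to the extracellular domain as when given alone. Full differed from Empty in 1.08% of all features, against 6.01% with ICD and 11.4% with ECD. A gene higher with both single domains and near Empty with Full therefore takes a low value here. The SEMA5A probes gave 0 of 24 readings above background, and the part of construct level in these values was not tested. In limma, 6 of the 22 tested genes passed at an adjusted p under 0.05 by their brightest probes, against 22.8% of all features called. All 6 had the lower value in the joined protein, where 12.3% of all features were called lower. For THBS1 the log2 difference was -0.49 for Full against ECD and 0.47 for ICD against Empty, a difference of -0.96 ± 0.18 (SE, limma adjusted p = 0.00257). For CLDN1 the values were -0.58 and 0.34, a difference of -0.91 ± 0.16 (limma adjusted p = 0.00162). For CD44 they were -0.26 and 0.32, a difference of -0.58 ± 0.12 (limma adjusted p = 0.00345). ADAM10 differed by -0.56 ± 0.15, TJP1 by -0.48 ± 0.17 and PLAU by -0.45 ± 0.14 (limma adjusted p = 0.0156, 0.0479 and 0.0305). The values of CLDN1, CD44, THBS1 and ADAM10 were called whichever of the 12 arrays was left out, while TJP1 was lost in 9 and PLAU in 5 of these fits. Without Full array 3, the differences were -1.11 for THBS1, -0.94 for CLDN1, -0.57 for CD44, -0.62 for ADAM10, -0.47 for TJP1 and -0.48 for PLAU, and TJP1 was not called (limma adjusted p = 0.0776). The value of ADAM10 rests on 1 probe, since its second probe gave 0.03 ± 0.22 (limma adjusted p = 0.932). The second probe of TJP1 gave -0.20, and the other probes of CD44 gave -0.90 and -0.33, of which only the first was called (limma adjusted p = 0.00375). Dimmer probes of KRT18 and PLAUR were called the other way, at 0.63 and 0.56 (limma adjusted p = 0.00591 and 0.0224). The brightest probes of these genes were not called, so the absence of higher calls depended on the choice of probe. Among 9 processing alternatives, TJP1 was lost in 3 and ADAM10 in 1, the mean of its 2 probes, and the other 4 genes were called in all 9.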

How the results depend on the processing

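With 3 arrays a group, most of the 14 called gene values were near the threshold. Over 140 refits under other processing, 115 kept the call, 25 lost it and 0 changed sign, and over 84 refits without 1 array, which have fewer samples, 34 kept it and 50 lost it. The cause of the other shifts was not tested. For ICD against Empty, the 2 called genes became 4 without background correction and 4 with the authors' values, 1 without a detection filter, with the mean of probes, or with only the 2 groups fitted, 0 with median scaling, and 0 to 1 without 1 array. For ECD the 4 became 2 without the filter and 1 to 2 without 1 array. For Full against ECD the 5 became 2 with only the 2 groups fitted and 1 to 5 without 1 array. For Full against ICD the 3 became 5 with the authors' values and 5 uncorrected for background, 1 without the filter, 0 with only the 2 groups, and 0 to 5 without 1 array. Full against Empty and ECD against ICD gave 0 in all of these fits, with 4 and 2 genes (18.2% and 9.09%) at an unadjusted p under 0.05 in limma, against 14.7% and 13.7% of all features. Of the pathway lists, the 4 ICD calls became 7 with the authors' values and 7 uncorrected for background, 2 with median scaling and 1 to 3 without 1 array. The 8 ECD calls became 17 with median scaling, 13 at a detection p under 0.01, 20 with only the 2 groups and 3 to 6 without 1 array. The 2 Full calls became 1 with median scaling or without the filter, 0 with only the 2 groups, and 0 to 3 without 1 array. Under median scaling, 2.11% of all features were called higher and 1.09% lower with ICD, and 13.9% and 1.08% with ECD. With Full these shares were 0.554% and 0.0652%. Shares over all features are not given for the other alternatives, so their counts show only how the calls moved.

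The labels do not say whether arrays with the same replicate number were handled together. Of 18 same-numbered pairs, 1 deviated together at a correlation over 0.1 (range -0.09 to 0.12). Pairs with other numbers ranged from -0.15 to 0.10, and 6 of 12 arrays correlated best with their own number. These correlations are too small and too few to settle whether the numbers mark a pairing. With replicate number as a block, calls were 0 for ICD, 3 for ECD and 0 for Full against Empty, 4 for Full against ECD, 2 for Full against ICD, and 3, 8 and 1 for the lists with ICD, ECD and Full. Shares of all features called with the block are not given, so these counts too show only how the calls moved. Genes near background, such as SNAI2 and ADAM9, and the 15 genes that were not tested are limited by signal over background, which the offset compresses further.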
